A study of Mus musculus with 24 samples.

Results

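A set of 10 genes that move, store or sense iron and heme were followed in the distal small intestine of mice on a control or a high-fat diet with or without metformin. The 10 genes, of 55536 listed in the table of read counts, were taken by symbol: *Tfrc* and *Flvcr2* for uptake of transferrin-bound iron and for heme transport, *Slc11a2* and *Cybrd1* for uptake of free iron, *Fth1* and *Ftl1* for storage, *Slc40a1* and *Heph* for export, *Hmox1* for heme breakdown and *Epas1* as a regulator. *Tfrc* and *Flvcr2* were selected on their values, having been seen to be higher on the high-fat diet in these libraries. Their differences between the groups, and all differences between the diets, are therefore given as a description with no test. All 10 genes passed the filter on low counts and were among the 14076 genes tested.

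The study compared 4 groups of 6 C57BL/6N mice, an inbred strain, each with 3 males and 3 females numbered M1 to M3 and F1 to F3. CD mice ate a control diet with 10% of the energy from fat, and HFD mice a diet with 60%, which makes mice of this strain obese. The CDmetf and HFDmetf mice ate the same diets for 20 weeks and then also received metformin, a drug used against diabetes, in their drinking water for 10 weeks (50 mg/kg/day). The mice were juveniles when the diets began, and 1 mouse per cage was sampled.

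The libraries held between 1829690 and 40606442 reads on genes, and values are CPM, read counts scaled to a common library total after TMM normalization. In the library CD M3 the 10 genes with the most reads, among them *Lars2* and both mitochondrial rRNA genes, took 85.4% of the counts, and in HFDmetf F2 they took 36.6%. The library labelled HFD M2 carried 3355 reads on *Xist* and 0 on 4 Y-linked genes, while the library labelled HFD F2 carried 1 and 423, so the sex-linked transcripts of both go against their labels. Results that lean on these libraries are followed by values without both. All 8 enterocyte markers had reads, with a summed level between 5654 and 34263 CPM. Markers of the position along the gut were less uniform. The summed level of 6 distal ileum markers ran from 171 to 4896 CPM, and that of 6 markers of the more proximal small intestine from 42.3 to 11456 CPM. The proximal markers include *Fabp1* and *Apoa4*, which the study lists among its top genes between the diets. For a high proximal sum, position and diet therefore cannot be told apart here. The proximal sum was above the distal one in 13 of the 24 libraries, in 3 of the CD, 2 of the CDmetf, 4 of the HFD and 4 of the HFDmetf libraries.

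Dietary iron enters the enterocyte from the lumen after reduction by the ferrireductase encoded by *Cybrd1*, through the divalent metal transporter encoded by *Slc11a2*. Inside the cell it is stored in ferritin, a shell of the heavy and light chains encoded by *Fth1* and *Ftl1*, or leaves on the blood side through ferroportin (*Slc40a1*), helped by the ferroxidase hephaestin (*Heph*). The transferrin receptor (*Tfrc*) takes up iron from blood transferrin, heme oxygenase 1 (*Hmox1*) frees iron from heme, and *Flvcr2* encodes a membrane transporter studied for heme and choline. Control is known at several layers: iron regulatory proteins bind stem loops in the untranslated regions of several of these mRNAs when iron is scarce, and HIF-2α, the product of *Epas1*, activates the absorption genes in the duodenum.

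The stem loops are shown because they can tie an mRNA to cellular iron by its own sequence. They were searched for in GENCODE M21 transcripts on GRCm38, as a loop CAGTGN closed by 5 base pairs above an unpaired C. The search misses loops of any other form, so a gene not listed may still carry such a loop. Each line is 29 bases, 5′ to 3′ on the strand of the gene, with the loop of 6 bases in capitals.
Fth1 5′UTR, chr19:9982732-9982760, plus strand: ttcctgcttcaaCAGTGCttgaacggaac
Ftl1 5′UTR, chr7:45459779-45459807, minus strand: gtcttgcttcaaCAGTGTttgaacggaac
Slc40a1 5′UTR, chr1:45925465-45925493, minus strand: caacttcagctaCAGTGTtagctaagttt
Tfrc 3′UTR, chr16:32631219-32631247, plus strand: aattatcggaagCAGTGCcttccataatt
Tfrc 3′UTR, chr16:32631598-32631626, plus strand: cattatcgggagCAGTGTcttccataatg
Tfrc 3′UTR, chr16:32631663-32631691, plus strand: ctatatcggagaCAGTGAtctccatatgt
Tfrc 3′UTR, chr16:32631710-32631738, plus strand: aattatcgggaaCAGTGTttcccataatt
Slc11a2 3′UTR, chr15:100395153-100395181, minus strand: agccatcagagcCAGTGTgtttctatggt
The first 7 pair at all 5 positions. The last, of *Slc11a2*, pairs at 4 of 5. With all 5 pairs required, 4 of the 10 genes carried such a loop in an untranslated region, beside 0.731% of 21901 coding genes. With 4 pairs allowed it was 5 of the 10, beside 4.90%. The loops of both ferritin chains and of ferroportin lie in the 5′UTR, where the regulatory proteins are known to block translation. The 4 loops of *Tfrc* and the weaker match of *Slc11a2* lie in the 3′UTR, where binding is known to protect the mRNA from decay. The values here are amounts of mRNA and do not report translation.

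RefSeq promoter windows of the GRCm38.p6 assembly (250 bases before to 50 bases after a start) were at hand for 5 of the 10 genes, in 7 windows. The hypoxia response element core ACGTG, on either strand, occurred in both *Tfrc* windows and in the *Flvcr2* window, and it is held by 19.6% of all 32851 windows. The *Tfrc* windows overlap, and the ACGTG in both is the same site. The other core, GCGTG, occurred in windows of all 5 genes, *Tfrc*, *Flvcr2*, *Cybrd1*, *Fth1* and *Ftl1*, and in 32.4% of all windows. The antioxidant response element TGACNNNGC, found in 12.4% of all windows, was in none of the 7, and TATAAA (8.32% of all) was in that of *Ftl1*. The cores of ACGTG in the *Flvcr2* window form the palindrome CACGTG and were counted on both strands. These matches describe letters and not binding.

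Per kilobase of exon, the 10 genes spanned a wide range of levels. *Fth1* was the highest with 173 ± 45.1 CPM per kb (SD, n = 24), above the next gene, *Tfrc* at 52.5 ± 22.8, in 24 of 24 libraries. *Tfrc* exceeded *Heph* (38.6 ± 11.9) in 16 libraries, *Heph* exceeded *Ftl1* (32.6 ± 5.91) in 18, and *Ftl1* exceeded *Epas1* (25.4 ± 7.85) in 17, so these 4 neighbours overlapped. *Epas1* was above *Slc11a2* (7.70 ± 1.69), and *Slc11a2* above *Slc40a1* (2.65 ± 1.74), in all 24. The lowest 4 genes overlapped again: *Flvcr2* at 2.39 ± 2.07, *Cybrd1* at 1.85 ± 0.563 and *Hmox1* at 1.45 ± 1.01 CPM per kb followed *Slc40a1*. *Ftl1* is a member of a multigene family with processed pseudogenes, to which reads of the light chain may have been lost, so its level beside *Fth1* is uncertain.

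**Figure D1:**
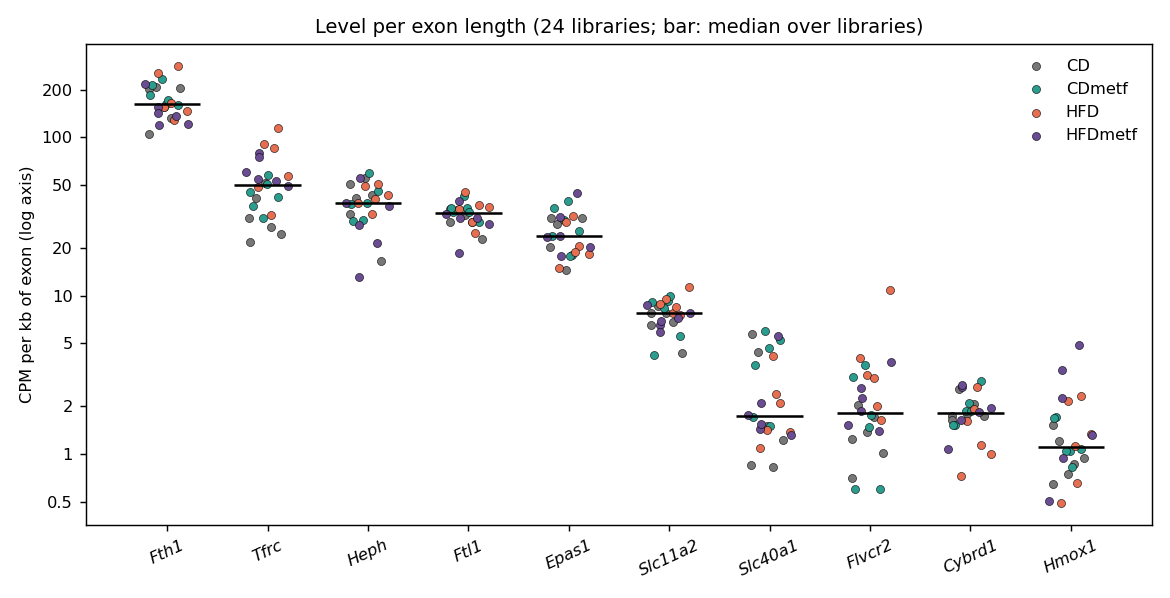
Level of each gene per kilobase of exon (log axis), 1 point per library (n = 24), coloured by group, with the median over libraries as a bar. *Fth1* lies above all other genes, and *Slc40a1*, *Flvcr2*, *Cybrd1* and *Hmox1* overlap at the bottom.

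*Tfrc* (ENSMUSG00000022797, chr16:32608920-32632794), the receptor that brings transferrin iron into cells, was read deeply, with 405 to 21653 reads per library. Its CPM ran from 136 through a median of 179 to 318 in the CD group and from 200 through 440 to 709 in the HFD group. The CDmetf group ran from 191 through 269 to 360, and the HFDmetf group from 304 through 355 to 491. The HFD libraries M1, M3 and F3 lay above every library on the control diet, and HFD overlapped CD through its libraries M2 and F2. The means were 203 ± 70.1 in CD, 272 ± 59.9 in CDmetf, 441 ± 190 in HFD and 382 ± 77.0 in HFDmetf (SD, n = 6 each). The log2 difference was 1.07 (SE = 0.24) for HFD vs. CD, with HFD higher in 5 of 6 pairs of mice of the same labelled sex and number. It was 0.51 (SE = 0.24) for HFDmetf vs. CDmetf, higher in 6 of 6 pairs. In every pair count with HFD, the M2 and F2 pairs are matched by labels that the sex-linked transcripts of these HFD libraries go against.

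With metformin the *Tfrc* means of the 2 diets were nearer to each other, from both sides. Choosing the gene for a high HFD value beside CD favours such a pattern, so it is a description only. The log2 difference was 0.41 (SE = 0.23) for CDmetf vs. CD and −0.14 (SE = 0.24) for HFDmetf vs. HFD, and the diet by metformin interaction was −0.55 (SE = 0.34). The lowest HFD library was the one labelled HFD M2, with 200 CPM. Without HFD M2 and F2 the HFD vs. CD difference was 1.35 (SE = 0.24), HFDmetf vs. HFD −0.46 (SE = 0.24) and the interaction −0.87 (SE = 0.32). Without CD M3 the values were 0.94 (SE = 0.24) and −0.43 (SE = 0.33). Markers of dividing cells, which use much transferrin iron, summed to 231 to 783 CPM in CD and 301 to 528 CPM in HFD (8 of 8 markers passed the filter and were tested, and none was at 0 reads over all 24 libraries, the sense in which this is given for each list). With their score as a covariate the HFD vs. CD difference of *Tfrc* was 1.08. Proximal markers moved with the diet, with a median sum of 1359 CPM in CD and 4812 CPM in HFD (6 of 6 tested, none at 0 reads), and their part in the difference was not tested. With the distal ileum score as a covariate the difference was 1.00.

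*Flvcr2* (ENSMUSG00000034258, chr12:85746539-85813585) was a low gene with 7 to 1625 reads per library, so its values in the shallow libraries rest on few reads. In the CD group it ran from 2.46 through a median of 4.59 to 7.18 CPM, and in the HFD group from 5.72 through 10.8 to 38.2 CPM. In CDmetf it ran from 2.10 through 5.69 to 12.7 CPM, and in HFDmetf from 4.93 through 7.23 to 13.3 CPM. The highest value belonged to HFD F1, one of the deepest libraries, where *Flvcr2* had 1625 reads. The means were 4.73 ± 1.69 in CD, 6.52 ± 4.41 in CDmetf, 14.4 ± 12.01 in HFD and 7.85 ± 3.10 in HFDmetf (SD, n = 6 each).

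For HFD vs. CD the log2 difference of *Flvcr2* was 1.44 (SE = 0.33), higher in 6 of 6 pairs, and 1.13 without HFD F1. For HFDmetf vs. CDmetf it was 0.40 (SE = 0.32), higher in 4 of 6 pairs. Within the high-fat diet the metformin group lay lower, with −0.77 (SE = 0.32) for HFDmetf vs. HFD in 5 of 6 pairs, and −0.45 without HFD F1. CDmetf vs. CD was 0.27 (SE = 0.33), and the interaction was −1.03 (SE = 0.46). As for *Tfrc*, the choice of the gene favours a value lower in HFDmetf than in HFD and a negative interaction. B-cell markers were uneven between libraries: their summed level ran from 5.77 to 58.0 CPM in CD, from 9.92 to 362 in CDmetf, from 12.2 to 274 in HFD and from 7.62 to 23.3 in HFDmetf (8 of 8 tested, none at 0 reads). With the B-cell score as a covariate HFD vs. CD was 1.11, HFDmetf vs. HFD −0.45 and the interaction −0.37. With the smooth muscle score they were 1.16, −0.50 and −0.68.

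**Figure D2:**
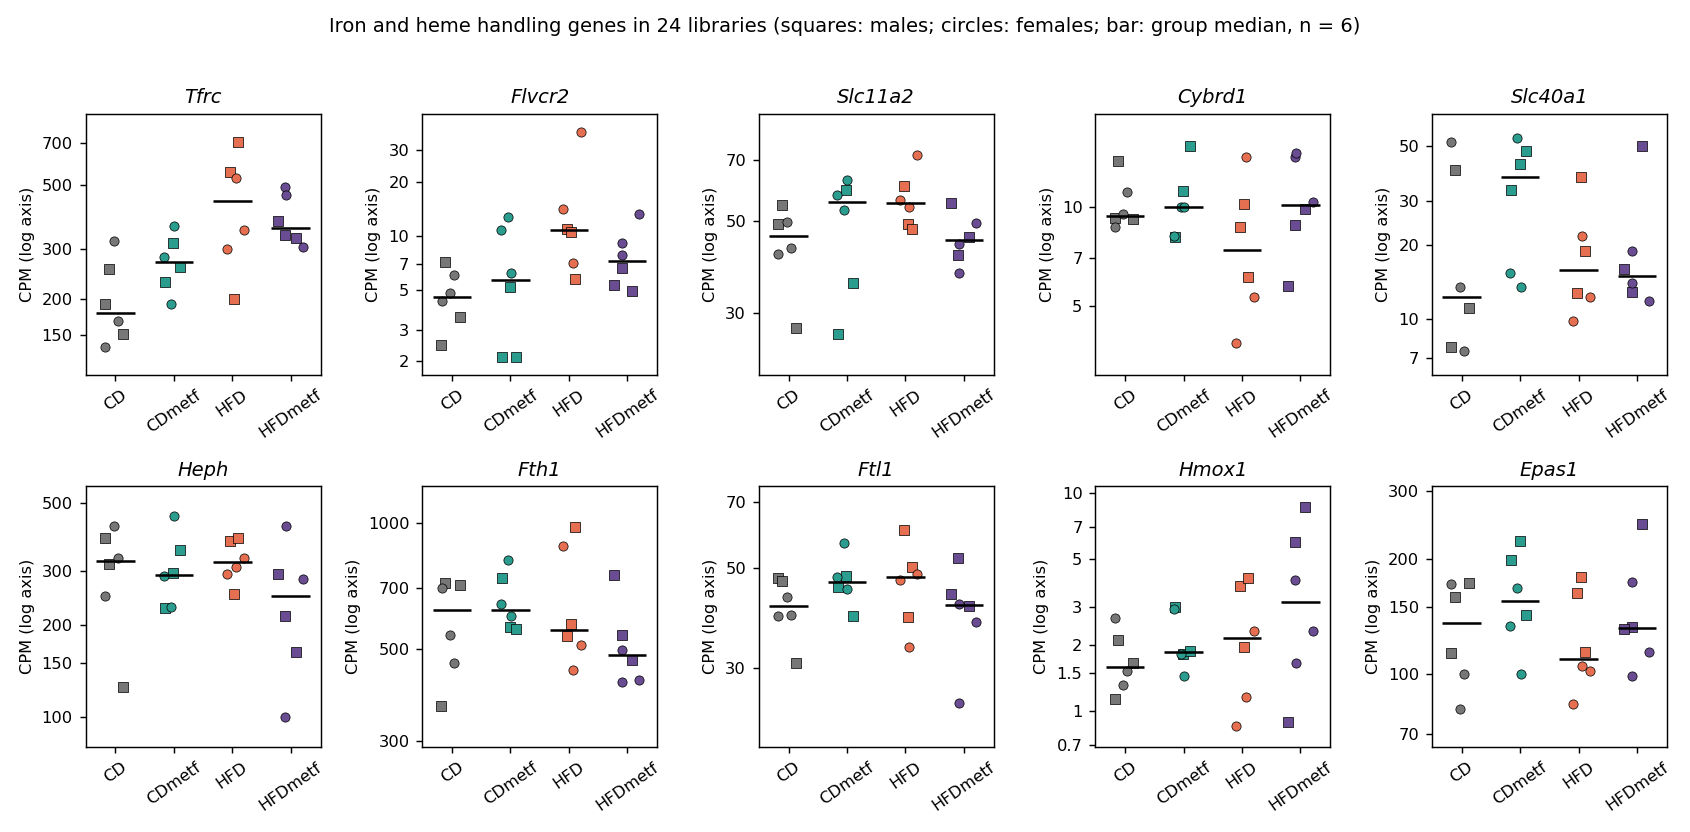
CPM of the 10 genes on log axes by group, 1 point per library (squares for males, circles for females), with the group median as a bar (n = 6). *Tfrc* and *Flvcr2* have their highest medians in HFD, 440 and 10.8 CPM, and the groups overlap for each of the 10 genes.

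The 2 genes of luminal iron uptake showed small differences. *Slc11a2* (ENSMUSG00000023030, chr15:100387898-100425072) ran from 27.6 through 46.0 to 54.5 CPM in CD, from 26.8 through 55.4 to 62.8 in CDmetf, from 47.8 through 55.1 to 72.1 in HFD and from 37.5 through 44.9 to 55.3 in HFDmetf. Its lowest libraries were CD M3, CDmetf M2 and CDmetf M3, and every HFD library was at 47.8 CPM or more. HFDmetf vs. HFD was −0.30 (SE = 0.17; edgeR quasi-likelihood FDR = 0.640), lower in 5 of 6 pairs, and CDmetf vs. CD was 0.13 (SE = 0.17; edgeR FDR = 0.988). Smooth muscle markers summed to 1096 to 1950 CPM in HFD and 1172 to 2782 CPM in HFDmetf (5 of 6 tested, none at 0 reads), and with their score as a covariate HFDmetf vs. HFD was −0.14. HFD vs. CD, as a description, was 0.34 (SE = 0.17) and HFDmetf vs. CDmetf −0.09 (SE = 0.17). *Cybrd1* (ENSMUSG00000027015, chr2:71117923-71142926) ran from 8.71 through 9.39 to 13.8 CPM in CD and from 3.85 through 7.41 to 14.2 CPM in HFD. Its values in CDmetf (8.12 through 9.98 to 15.3) and HFDmetf (5.76 through 10.1 to 14.6) covered nearly the same range. HFDmetf vs. HFD was 0.39 (SE = 0.27; edgeR FDR = 0.645) and CDmetf vs. CD 0.02 (SE = 0.26; edgeR FDR = 0.999), neither past the threshold. HFD vs. CD was −0.33 (SE = 0.26), lower in 5 of 6 pairs. Without HFD F3, the highest library of that group, the values were 0.67 (edgeR FDR = 0.267) for HFDmetf vs. HFD and −0.60 for HFD vs. CD.

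Of the ferritin chains, the light one varied less between libraries than the heavy one. *Fth1* (ENSMUSG00000024661, chr19:9980598-9985098) ran from 364 through 620 to 719 CPM in CD, from 557 through 619 to 813 in CDmetf, from 445 through 555 to 979 in HFD and from 417 through 484 to 753 in HFDmetf. It was lower in HFDmetf than in HFD in 6 of 6 pairs, with means of 516 ± 125 and 654 ± 220 CPM and a log2 difference of −0.33 (SE = 0.19; edgeR FDR = 0.640), which did not pass the threshold. *Ftl1* (ENSMUSG00000050708, chr7:45457944-45459884) had the smallest coefficient of variation of the 10 genes, 18.1% (43.7 ± 7.92 CPM over all 24 libraries), with group medians between 41.1 and 47.8 CPM. Its differences were −0.18 (SE = 0.15; edgeR FDR = 0.686) for HFDmetf vs. HFD and 0.19 (SE = 0.15; edgeR FDR = 0.959) for CDmetf vs. CD. For CDmetf vs. CD *Fth1* had 0.19 (SE = 0.18; edgeR FDR = 0.976). Between the diets without metformin the log2 differences were 0.18 (SE = 0.18) for *Fth1* and 0.16 (SE = 0.15) for *Ftl1*, and with metformin −0.35 (SE = 0.19) and −0.21 (SE = 0.15).

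*Slc40a1* (ENSMUSG00000025993, chr1:45908068-45926523), the iron exporter, varied several-fold within each group. It ran from 7.46 through 12.3 to 51.6 CPM in CD, from 13.5 through 37.6 to 53.6 in CDmetf, from 9.85 through 15.8 to 37.5 in HFD and from 11.9 through 14.97 to 49.8 in HFDmetf. The 24 values left a gap between 21.6 and 33.1 CPM. Above it lay 8 libraries, CD M2 and F2, CDmetf M1, M2, M3 and F2, HFD M2 and HFDmetf M1, and the other 16 lay below it. The means were 21.9 ± 19 in CD, 34.2 ± 16.7 in CDmetf, 18.8 ± 10.2 in HFD and 20.5 ± 14.5 in HFDmetf (SD, n = 6 each). CDmetf vs. CD was 0.81 (SE = 0.45; edgeR FDR = 0.940), higher in 5 of 6 pairs. HFDmetf vs. HFD was 0.19 (SE = 0.45; edgeR FDR = 0.905) and became −0.37 without HFDmetf M1, so its direction rests on that library. The description gave 0.02 (SE = 0.45) for HFD vs. CD and −0.59 (SE = 0.45) for HFDmetf vs. CDmetf. The first ran from −0.25 to 0.41 over the settings tried, with 0.22 without HFD M2 and F2, and the second was −1.21 without HFDmetf M1.

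The region markers were set beside *Slc40a1*. The proximal ones include *Fabp1* and *Apoa4*, which the study lists as different between the diets, so they do not mark position alone. In the 13 libraries whose proximal sum was above the distal one, *Slc40a1* ran from 7.46 through a median of 12.9 to 18.8 CPM, and in the 11 others from 11.1 through 39.9 to 53.6 CPM. The 11 were 3 CD, 4 CDmetf, 2 HFD and 2 HFDmetf libraries, and all 8 libraries above the gap were among them. Among the 13 libraries alone the medians were 7.70 CPM in CD (n = 3), 14.4 in CDmetf (n = 2), 12.5 in HFD (n = 4) and 13.4 in HFDmetf (n = 4). The sides of this split thus differed in *Slc40a1*, and each group had libraries on both sides. The part of the region markers in the group differences was not tested beyond the fit with the distal ileum score. In that fit CDmetf vs. CD was 0.68 and HFDmetf vs. HFD 0.03. Because the values fall on both sides of a gap, no correlation over all 24 libraries is given.

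*Heph* (ENSMUSG00000031209, chrX:96455359-96574485), the membrane ferroxidase that works with ferroportin, ran from 126 through 324 to 423 CPM in CD, from 227 through 293 to 455 in CDmetf, from 253 through 321 to 386 in HFD and from 100 through 248 to 421 in HFDmetf. The lowest values were those of HFDmetf F2, CD M3 and HFDmetf M1. HFDmetf vs. HFD was −0.46 (SE = 0.25; edgeR FDR = 0.640), lower in 5 of 6 pairs, and CDmetf vs. CD was −0.04 (SE = 0.25; edgeR FDR = 0.999). HFDmetf vs. CDmetf was −0.35 (SE = 0.25), lower in 6 of 6 pairs, and HFD vs. CD 0.07 (SE = 0.25). The enterocyte markers summed to 18223 to 34263 CPM in HFD and 5654 to 30288 CPM in HFDmetf (8 of 8 tested, none at 0 reads), and their part in the *Heph* difference was not tested. In bulk tissue fewer cells of a type and less RNA per cell cannot be told apart.

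*Hmox1* (ENSMUSG00000005413, chr8:75093621-75100589), which breaks down heme, was near the limit of detection, with 2 to 99 reads per library and fewer than 10 reads in 10 of the 24 libraries. In 2 libraries, HFD F2 and HFDmetf M3, it had fewer than the 3 reads taken as the floor. It ran from 1.13 through 1.59 to 2.68 CPM in CD, from 1.45 through 1.86 to 3.01 in CDmetf, from 0.857 through 2.15 to 4.09 in HFD and from 0.885 through 3.15 to 8.59 in HFDmetf. The highest libraries were HFDmetf M1 with 8.59 and HFDmetf M2 with 5.96 CPM, both above every library of the other 3 groups. HFDmetf vs. HFD was 0.64 (SE = 0.38; edgeR FDR = 0.640), higher in 4 of 6 pairs, and CDmetf vs. CD 0.32 (SE = 0.39; edgeR FDR = 0.982). The description gave 0.72 (SE = 0.38) for HFDmetf vs. CDmetf and 0.40 (SE = 0.39) for HFD vs. CD, the latter 0.72 (SE = 0.41) without HFD M2 and F2. Macrophage markers, of cells that break down much heme, summed to 110 to 189 CPM in HFD and 140 to 281 CPM in HFDmetf (8 of 8 tested, none at 0 reads), and erythroid markers, from blood in the tissue, to 7.90 to 50.97 and 27.1 to 104 CPM (4 of 7 tested, none at 0 reads). Their part in this difference was not tested. Without HFDmetf M1 it was 0.29.

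*Epas1* (ENSMUSG00000024140, chr17:86753700-86833410), which encodes HIF-2α, ran from 80.9 through 136 to 173 CPM in CD, from 99.9 through 155 to 222 in CDmetf, from 83.5 through 110 to 179 in HFD and from 99.2 through 132 to 247 in HFDmetf. It was a little higher in both metformin groups, but by less than the spread between mice: 0.27 (SE = 0.18; edgeR FDR = 0.644) for HFDmetf vs. HFD and 0.25 (SE = 0.18; edgeR FDR = 0.951) for CDmetf vs. CD, in 4 of 6 pairs each. Between the diets it was −0.11 (SE = 0.18) without and −0.09 (SE = 0.18) with metformin. The mRNA says nothing of the amount of HIF-2α protein, which is set mainly by its breakdown.

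Over the 10 genes, metformin gave no difference past the threshold. The lowest unadjusted edgeR p-values of the 8 genes tested were 0.084 for *Heph* in HFDmetf vs. HFD and 0.088 for *Slc40a1* in CDmetf vs. CD. In HFDmetf vs. HFD, 0 of the 8 had an FDR under 0.05 in edgeR, DESeq2 or limma-voom, beside 0.0% of all 14076 genes in edgeR. In edgeR 0 of 8 had an unadjusted p under 0.05, beside 6.61% of all genes (3.79% higher and 2.82% lower). By limma-voom with sample quality weights *Cybrd1* (0.76; FDR = 0.0889), *Slc11a2* (−0.43; FDR = 0.117), *Heph* (−0.49; FDR = 0.128) and *Fth1* (−0.33; FDR = 0.158) had an unadjusted p under 0.05. So did *Heph* by limma-voom without weights (FDR = 0.691) and *Fth1* by DESeq2 (FDR = 0.614). For these fits, and for the later alternatives to the main edgeR fit in this paragraph, the shares of all genes are not given. The genes under 0.05 in them are therefore not read as a result about the 10 genes. In CDmetf vs. CD the counts were again 0 of 8 by the 3 tools, beside 0.0% of all genes in edgeR (4 genes in DESeq2). In edgeR 0 of 8 were at an unadjusted p under 0.05, beside 5.14% (2.74% higher and 2.41% lower). *Slc40a1* was under 0.05 by limma-voom without (FDR = 0.772) and with sample quality weights (FDR = 0.363), and *Epas1* with them (FDR = 0.374). Without HFD M2 and F2 the HFDmetf vs. HFD differences were nearer to 0 for *Hmox1* (0.30, SE = 0.40), *Epas1* (0.15, SE = 0.20) and *Slc40a1* (0.02, SE = 0.50). Without CD M3 the CDmetf vs. CD difference of *Heph* was −0.26 (SE = 0.19) and that of *Slc11a2* 0.02 (SE = 0.16). HFDmetf vs. HFD was then −0.49 (SE = 0.18; edgeR FDR = 0.544) for *Heph* and −0.33 (SE = 0.16; edgeR FDR = 0.544) for *Slc11a2*, both at an unadjusted p under 0.05. In CDmetf vs. CD 7 of the 8 were higher, with a median log2 difference of 0.19, while in HFDmetf vs. HFD 4 were higher and 4 lower with a median of 0.01. The medians over all genes were 0.00 and 0.03, and the 2 contrasts share no libraries. For HFD vs. CD, 8 of the 10 genes had a higher value and the median was 0.17, beside 0.00 over all genes. By more than 1 on the log2 scale 2 of the 10, *Tfrc* and *Flvcr2*, were higher, beside 1.29% of all genes, and 0 were lower, beside 0.767%, counts that the choice of the genes fixed. For HFDmetf vs. CDmetf, 4 of 10 were higher, the median was −0.09, 0 were higher by more than 1, beside 1.12% of all genes, and 0 lower, beside 1.36%. In the interaction *Flvcr2* alone was under −1, beside 2.7% of all genes, 0 were over 1, beside 2.66%, and the median over the 10 genes was −0.42, beside 0.03 over all genes. The interaction contains HFD vs. CD with a minus sign, so choosing *Tfrc* and *Flvcr2* favours negative values for both. The count under −1, and in part the median, are therefore not free of the choice. In none of the 4 contrasts did the groups of 6 separate without overlap for any of the 10 genes. Such separation was seen for 0.0853% of all genes in HFD vs. CD, 0.142% in HFDmetf vs. CDmetf, 0.0355% in HFDmetf vs. HFD and 0.149% in CDmetf vs. CD.

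**Figure D3:**
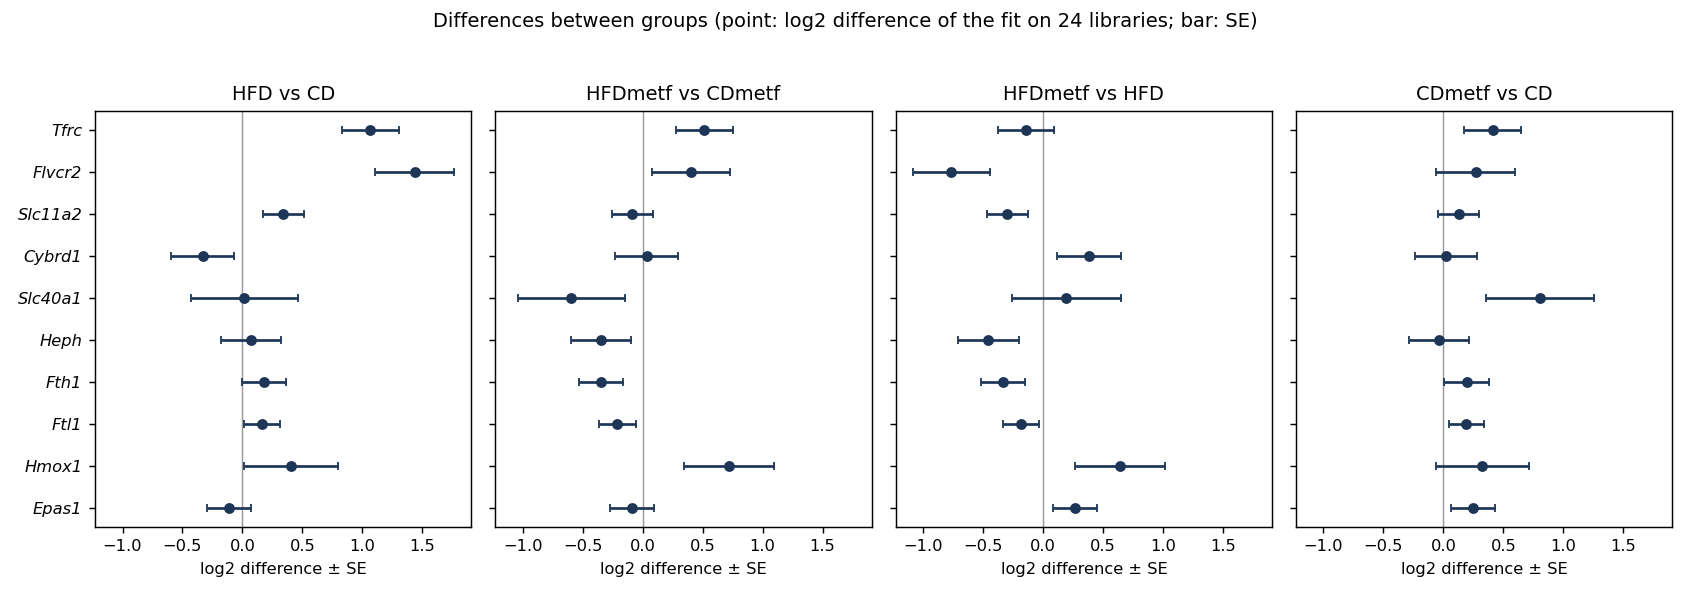
Log2 difference (point) with its SE (bar) for the 10 genes in the 4 contrasts, from 1 fit over 24 libraries. *Tfrc* (1.07) and *Flvcr2* (1.44) stand apart in HFD vs. CD, which they were chosen for, and the other genes lie between −0.33 and 0.40 there.

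The clearest difference that the choice of genes did not use was between the sexes. *Flvcr2* was higher in females, with 4.36 through a median of 8.48 to 38.2 CPM over 12 females and 2.10 through 5.25 to 11.0 CPM over 12 males. Females were higher in 11 of 12 pairs of the same group and number, CD M2 and F2 being the exception, and in 10 of 11 without the HFD M2 and F2 pair, whose sex is in doubt. The log2 difference was 0.98 (SE = 0.23; edgeR FDR = 0.265), not past the threshold of 0.05 over all genes in edgeR, but with an FDR of 0.0266 in DESeq2 and 0.0235 in limma-voom with sample quality weights, and of 0.158 in limma-voom without them. Without HFD M2 and F2 it was 1.05 (SE = 0.25; edgeR FDR = 0.345), and without HFD F1 it was 0.83. *Epas1* was lower in females, with 80.9 through 103 to 174 CPM in females and 113 through 161 to 247 in males, lower in 10 of 12 pairs and in 9 of 11 without the HFD M2 and F2 pair. Its log2 difference was −0.48 (SE = 0.13; edgeR FDR = 0.479), and −0.43 (SE = 0.13; edgeR FDR = 0.526) without HFD M2 and F2.

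The other 8 genes had edgeR p-values of 0.051 or more between the sexes. *Hmox1* came nearest, with −0.57 (SE = 0.27; edgeR FDR = 0.682), and *Tfrc* had −0.01 (SE = 0.17; edgeR FDR = 0.993) with means of 324 and 325 CPM in females and males. In all, 1 of 10 genes was higher and 1 lower in females at an unadjusted p under 0.05, beside 2.64% and 4.62% of all genes, and 0 had an FDR under 0.05, beside 0.0071% of all genes. Endothelial markers had median sums of 97.7 CPM in females and 122 CPM in males, and adipocyte markers 47.1 and 156 CPM (6 of 6 tested for each, none at 0 reads). Their part in the *Epas1* difference was not tested.

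**Figure D4:**
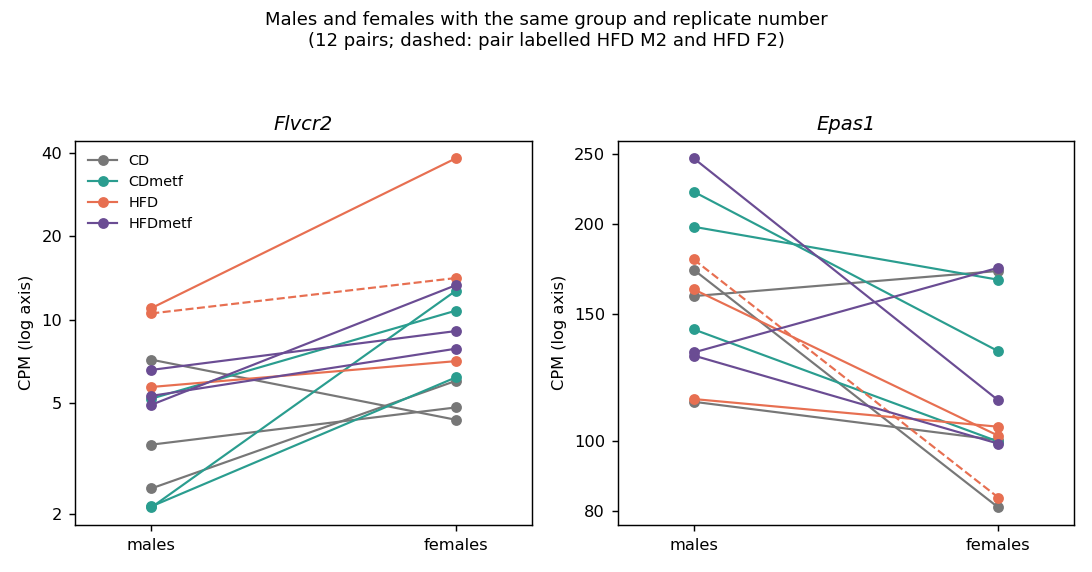
CPM (log axis) of *Flvcr2* and *Epas1* in males and females of the same group and replicate number, 12 pairs coloured by group, with the pair labelled HFD M2 and HFD F2 dashed. By label, *Flvcr2* is higher in the female of 11 pairs and *Epas1* lower in the female of 10. The sex-linked transcripts of the dashed pair go against its labels, and without it the counts are 10 and 9 of 11 pairs.

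Libraries also differed in their mixture of cells, and several of the genes followed it. Each gene was set beside the scores of 13 marker lists over the 24 libraries, 130 relations in all. Of these, 22 had a Benjamini-Hochberg adjusted permutation p of rho under 0.05, a count given without its share over all genes. Several genes followed more than 1 list, so a relation below is not particular to 1 cell type. *Heph* followed the enterocyte score (r = 0.94, rho = 0.85, permutation p = 1e-05 for both, the smallest that 100000 permutations can give, adjusted 0.00065 and 0.00043). Without the 2 farthest libraries r was 0.89, and within replicate numbers 1, 2 and 3 it was 0.97, 0.97 and 0.95 (n = 8 each). Of all tested genes, 0.888% had a rho as high. *Hmox1* followed the macrophage score (r = 0.82, rho = 0.82, permutation p = 1e-05 for both, adjusted 0.00065 and 0.00043), with r = 0.72 without the 2 farthest libraries and a rho reached by 0.242% of genes. Within numbers 1, 2 and 3 its r was 0.87, 0.98 and 0.36. *Hmox1* also followed the adipocyte score (rho = 0.70, adjusted permutation p = 0.0041, a rho reached by 2.62% of genes). With the endothelial score its rho was 0.57 (adjusted permutation p = 0.033, reached by 12.7%).

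*Epas1* followed the endothelial score (r = 0.77, rho = 0.81, permutation p = 2e-05 and 1e-05, adjusted 0.00087 and 0.00043), with r = 0.67 without the 2 farthest libraries. Within numbers 1, 2 and 3 its r was 0.88, 0.85 and 0.32, and after removing group, sex and number it was 0.83. It also ran against the enterocyte score (r = −0.64, rho = −0.71, permutation p = 0.00066 and 0.00022, adjusted 0.0086 and 0.0041, r = −0.57 without the 2 farthest). A rho as low was reached by 5.15% of all tested genes. *Epas1* followed the macrophage score as well (r = 0.70, rho = 0.69, permutation p = 0.0001 and 0.00019, adjusted 0.0026 and 0.0041). With the proximal score its rho was −0.57 (adjusted permutation p = 0.033, reached by 9.45%). *Slc11a2* was lower where smooth muscle markers were high (r = −0.69, rho = −0.67, permutation p = 0.00017 and 0.00043, adjusted 0.0032 and 0.007). Its r was −0.63 without the 2 farthest libraries and −0.68, −0.90 and −0.59 within the 3 numbers, and 2.89% of all tested genes had a rho as low. *Slc11a2* also followed the enterocyte score (rho = 0.59, adjusted permutation p = 0.026, a rho reached by 9.80% of genes). It ran against the erythroid score (rho = −0.58, adjusted permutation p = 0.028, reached by 0.526%). *Cybrd1* ran against the proximal score (rho = −0.55, adjusted permutation p = 0.043, reached by 11.0%). *Tfrc*, *Flvcr2*, *Fth1* and *Ftl1* had no adjusted p of rho under 0.05 with any list. The nearest for *Flvcr2* was the B-cell score (r = 0.54, rho = 0.48, permutation p = 0.0063 and 0.019, adjusted 0.032 and 0.089), where r was 0.29 without the 2 farthest libraries. The scores share the libraries and partly mirror each other, so these relations are not independent.

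**Figure D5:**
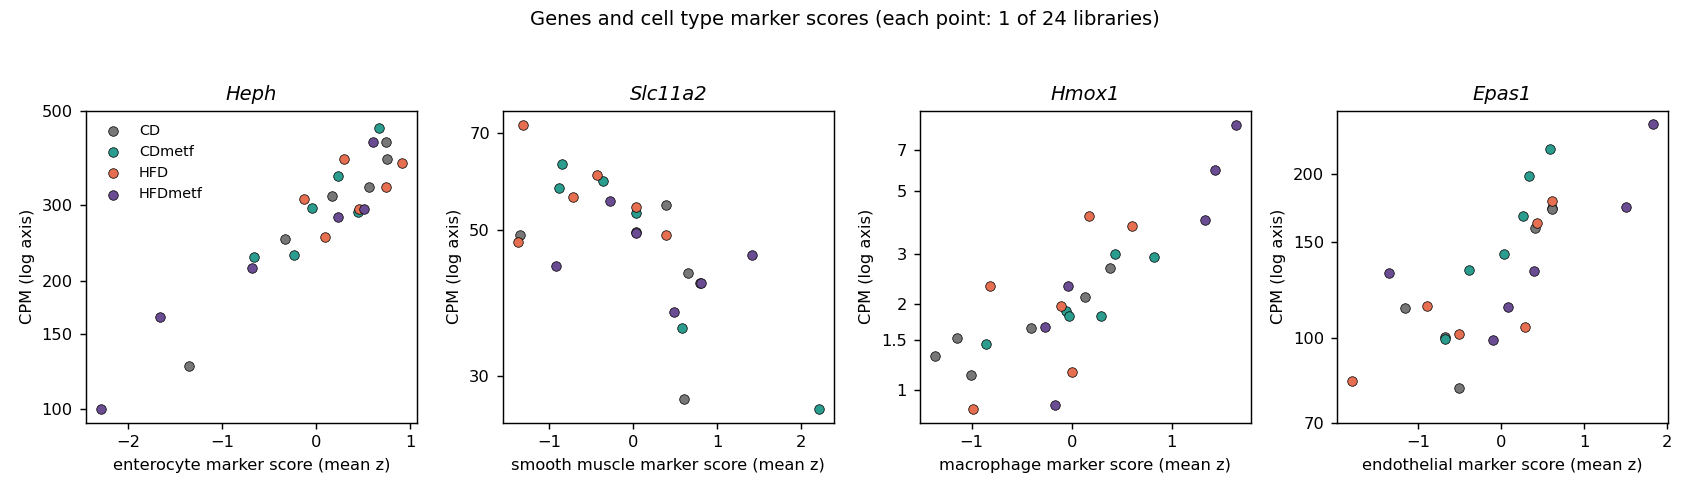
CPM (log axis) against marker scores (mean z-score of log2 CPM over the markers), 1 point per library (n = 24) coloured by group. *Heph* rises with the enterocyte, *Hmox1* with the macrophage and *Epas1* with the endothelial score (r = 0.94, 0.82 and 0.77), and *Slc11a2* falls with the smooth muscle score (r = −0.69).

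Of the 45 pairs among the 10 genes, 2 had an adjusted permutation p of rho under 0.05. One of them was *Heph* with *Epas1* (r = −0.61, rho = −0.69, permutation p = 0.0011 and 0.00028, adjusted 0.017 and 0.013), with r = −0.67 without the 2 farthest libraries and −0.66 after removing group, sex and number. The other held *Slc40a1* and is not given because of the gap in its values. *Flvcr2* and *Slc11a2* had r = 0.66 and rho = 0.55 (permutation p = 0.00072 and 0.006, adjusted 0.016 and 0.068), with r = 0.47 without the 2 farthest libraries. The heavy and light ferritin chains had r = 0.27 and rho = 0.31 (permutation p of rho with an adjusted value over 0.05), and *Tfrc* and *Flvcr2*, both high in HFD, r = 0.29 and rho = 0.29.

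The genes whose pattern over the 24 libraries was most like that of *Tfrc*, among 11172 genes with a mean of at least 5 CPM, were *Hsdl2* (rho = 0.77), *Pros1* (0.72), *Hcfc2* (0.71), *Hadhb* (0.70) and *Aldh1a3* (0.70). For *Flvcr2* they were *Arfip2* (rho = 0.76), *Cd74* (0.70), *H2-Ab1* (0.66), *Vti1a* (0.65) and *Wdr24* (0.65). They are named as a description of the 5 highest values of each, with no test.

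The wider machinery was described with 75 further genes in 8 lists, of which 64 were tested, 9 were under the filter and 2 symbols found no match. None of the 64 had an FDR under 0.05 in edgeR for metformin or sex. At an unadjusted p under 0.05 there were 4 of 64 (6.25%) in HFDmetf vs. HFD, beside 6.61% of all genes, 2 of 64 in CDmetf vs. CD, beside 5.14%, and 5 of 64 between the sexes, beside 7.27%. These shares are near those of all genes or below them.

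In the heme transport list *Slc46a1*, a proton-coupled folate transporter that also carries heme, had means of 15.5 ± 10.1 CPM in CD, 16.7 ± 7.94 in CDmetf, 29.96 ± 35.2 in HFD and 12.7 ± 5.42 in HFDmetf (SD, n = 6), with −1.12 (SE = 0.49; edgeR FDR = 0.640) for HFDmetf vs. HFD and 0.87 (SE = 0.48) for HFD vs. CD. The HFD mean rests on HFD M3 at 101 CPM, the others of that group lying between 7.02 and 26.3 CPM. *Slc48a1*, which moves heme out of lysosomes, had the opposite sign, 0.55 (SE = 0.24; edgeR FDR = 0.640), with 14.6 ± 3.07 in HFD and 22.7 ± 10.3 in HFDmetf. *Flvcr1*, the heme exporter related to *Flvcr2*, had 0.79 (SE = 0.43) for HFD vs. CD, with means of 107 ± 55.2 and 58.5 ± 34.1 CPM. *Abcg2*, an efflux pump that carries porphyrins, had −0.71 (SE = 0.27) and *Hebp1*, a heme-binding protein, 0.71 (SE = 0.30) for HFDmetf vs. CDmetf, and *Hebp1* had −0.37 (SE = 0.30) for HFD vs. CD. Of the 6 tested genes of this list, 3 were higher and 3 lower in HFD vs. CD.

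The sensors showed little. *Aco1* and *Ireb2*, which encode the iron regulatory proteins, had 0.17 (SE = 0.14) and 0.15 (SE = 0.19) for HFD vs. CD and −0.22 (SE = 0.14; edgeR FDR = 0.642) and −0.22 (SE = 0.19; edgeR FDR = 0.690) for HFDmetf vs. HFD. *Fbxl5*, the iron-sensing ligase subunit that removes iron regulatory protein 2, had −0.41 (SE = 0.19; edgeR FDR = 0.640) for HFDmetf vs. HFD, with means of 92.8 ± 32.5 and 122 ± 31.9 CPM. Of the hypoxia genes, *Hif1a* had 0.12 (SE = 0.25) for HFD vs. CD and −0.17 (SE = 0.25; edgeR FDR = 0.826) for HFDmetf vs. HFD. *Egln3*, a prolyl hydroxylase that is itself a target of the hypoxia factors, had means of 68.2 ± 25.5 CPM in CD, 58.3 ± 20.4 in CDmetf, 133 ± 75.8 in HFD and 87.3 ± 40.3 in HFDmetf. Its log2 differences were 0.97 (SE = 0.30) for HFD vs. CD, 0.58 (SE = 0.30) for HFDmetf vs. CDmetf and −0.64 (SE = 0.30; edgeR FDR = 0.640) for HFDmetf vs. HFD. *Hif3a*, the third HIF α gene, had −0.60 (SE = 0.53) for HFD vs. CD at 0.988 ± 0.398 and 2.04 ± 0.812 CPM. This HFD mean is below the floor of 3 reads in HFD M3 (1.226 CPM) and HFD F2 (1.285 CPM), so the difference rests on few reads. In the same contrast *Cul2*, a subunit of the ligase that removes HIF α, had 0.22 (SE = 0.14).

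In the heme synthesis list 13 of 16 genes were higher and 3 lower in HFD vs. CD, with a median log2 difference of 0.12, beside 48.8% of all genes higher and a median of 0.00. With metformin, HFDmetf vs. CDmetf, 12 were higher and 4 lower with a median of 0.09, beside 55.2% of all genes higher. Among them in HFD vs. CD were *Alas1*, the rate-limiting synthase, at 0.34 (SE = 0.18) and *Alad*, an early enzyme of the pathway, at 0.32 (SE = 0.14). *Alas1* had means of 83.7 ± 17.8 CPM in CD and 106 ± 35.6 in HFD. *Slc25a28*, a mitochondrial iron importer, had −0.49 (SE = 0.21; edgeR FDR = 0.940) for CDmetf vs. CD and 0.50 (SE = 0.21) for HFDmetf vs. CDmetf, 2 contrasts that share the CDmetf libraries. Between the sexes *Slc25a38* (0.25, SE = 0.10; edgeR FDR = 0.613) and *Cpox* (0.16, SE = 0.07; edgeR FDR = 0.667) were among the genes with unadjusted p-values under 0.05, both with higher values in females. In HFDmetf vs. CDmetf *Iscu*, a scaffold for iron-sulfur clusters, had 0.23 (SE = 0.16).

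The remaining lists gave single genes. *Bach1*, the heme-binding repressor of *Hmox1*, had −0.36 (SE = 0.23) for HFD vs. CD and −0.62 (SE = 0.23) for HFDmetf vs. CDmetf, with means of 181 ± 50.6 CPM in CDmetf and 119 ± 47.5 in HFDmetf. Of the 12 genes of heme breakdown and NRF2, 10 were lower in HFDmetf than in HFD, with a median of −0.13, beside 53.9% of all genes higher and a median of 0.03, and 0 had an unadjusted p under 0.05. Their largest differences otherwise were those of *Slc7a11*, a cystine transporter (0.49, SE = 0.59, for HFD vs. CD and −0.91, SE = 0.58, for HFDmetf vs. CDmetf), *Srxn1* (−0.36, SE = 0.23, for HFDmetf vs. CDmetf) and *Txnrd1* (0.24, SE = 0.15, for HFD vs. CD). In the ferritin and chaperone list the chaperone gene *Pcbp1* had 0.23 (SE = 0.11; edgeR FDR = 0.940) for CDmetf vs. CD. The ferrireductase gene *Steap4* (−1.05, SE = 0.47; edgeR FDR = 0.666) and the ferritin receptor gene *Scara5* (−1.50, SE = 0.59; edgeR FDR = 0.619) had lower values in females at unadjusted p-values of 0.036 and 0.019. *Scara5* was at 3.41 ± 3.18 CPM in HFDmetf and 1.70 ± 2.16 in CDmetf (1.22, SE = 0.82), and *Steap4* had −0.76 (SE = 0.66) for HFD vs. CD and 0.61 (SE = 0.64) for HFDmetf vs. CDmetf. *Ncoa4*, the receptor that takes ferritin to its breakdown, had 0.27 (SE = 0.20) and −0.16 (SE = 0.20) in these contrasts, and *Nupr1* −0.56 (SE = 0.33) and −0.17 (SE = 0.33). Of the 7 tested genes of transferrin and iron uptake, 6 were lower in HFD than in CD with a median of −0.10, among them the ferrireductase gene *Steap2* (−0.16, SE = 0.23). The exception was the metal ion transporter gene *Slc39a14* (0.17, SE = 0.14). In HFDmetf vs. CDmetf *Steap3*, the ferrireductase of the transferrin cycle, had 0.30 (SE = 0.24) and *Dnm2*, the endocytic dynamin, −0.19 (SE = 0.15). In the export and hepcidin list *Hfe*, a partner of the transferrin receptor, and *Bmp6*, the ligand that induces hepcidin, both had higher values in HFDmetf than in CDmetf (0.52, SE = 0.23, and 0.53, SE = 0.23) and *Neo1*, a hemojuvelin receptor, lower ones (−0.38, SE = 0.14). For HFD vs. CD *Bmp6* had −0.16 (SE = 0.23), *Neo1* −0.22 (SE = 0.14) and the ferroxidase gene *Cp* −0.17 (SE = 0.23). *Rc3h1*, in the sensing list, had −0.21 (SE = 0.11) for HFDmetf vs. CDmetf. Hepcidin (*Hamp*), the liver hormone that closes ferroportin, had 10 reads over all 24 libraries.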

How the data were processed

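RNA-seq libraries were made from the distal small intestine of 24 mice, 1 library per mouse. The authors trimmed the reads with Trimmomatic 0.39, used STAR 2.5.3a both for mapping to GRCm38 and for counting, and deposited raw read counts per gene, not normalized. The annotation release and the strand counted are not given in the sources used here. Reads not assigned to any gene in the count table were 35.5% to 75.7% of the reads per library and stayed out of library sizes. Reads of *Ftl1* that also match its pseudogenes may be lost.

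Counts of all 24 libraries were fitted with edgeR 4.0.16 in R 4.3.3 (TMM, filterByExpr, quasi-likelihood test, 17 residual degrees of freedom) with group, sex and replicate number. The study's model had sex and a block as covariates, and whether the replicate number is that block is not given in the sources used here. FDR is the Benjamini-Hochberg adjusted p over 14076 genes with a threshold of 0.05. The script was tested on simulated data. A CPM value of 3 reads, taken as the floor, was 0.0705 to 1.71 CPM, and this depth limit covers counting error only. Each library was 1 mouse, so p-values measure the spread between mice. Alternatives were limma-voom 3.58.1 with and without sample quality weights, DESeq2 1.42.0, RLE normalization, other filters, no replicate block, only the 12 samples compared, marker scores as covariates, and leaving out libraries.

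The genes and the lists were chosen with earlier results of these data known. Named beside the 10 genes are those of the wider lists with an unadjusted p under 0.05 for metformin or sex, or with 1 of the 3 largest log2 differences of their list between the diets, *Slc46a1*, *Slc48a1*, *Aco1*, *Ireb2*, *Alas1* and *Hif1a* in any case, and the 5 genes most like *Tfrc* and *Flvcr2*. A few results of the heme synthesis list that this rule would name are not reported here. *Hamp* and the split by region markers were added after values were seen. Coordinates and stem loops are from GENCODE M21 on GRCm38, with exon lengths from the same annotation. Correlations used log2 CPM (prior count 1) and 100000 permutations.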

Additional observations from a re-analysis of the deposited data

Results flagged for a closer look

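In HFDmetf the *Slc40a1* value of M1, 49.8 CPM, stood apart from the other 5 libraries, which lay between 11.9 and 18.8 CPM. It was the only 1 of 40 combinations of gene and group where a library lay so far out by Dixon's criterion for 6 samples on log2 CPM, a distance that chance gives in about 1 of 20 groups. The same library had the highest *Hmox1* (8.59 CPM) and *Epas1* (247 CPM) of all 24, and its distal marker sum was above its proximal one.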

How the results depend on the processing

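Each value was computed under 38 other settings, 24 of which left out 1 library. Of the values for single genes 2191 stayed within the spread between replicates or on their side of the threshold, 49 moved and 2 passed the threshold, both for *Flvcr2* between the sexes (0.98 by DESeq2 and 1.33 by limma-voom with sample quality weights, edgeR's quasi-likelihood test giving 0.98), so that 1 of the 10 genes was called there by either tool and 0 by edgeR. The genes called between the sexes among all genes numbered 1 in edgeR, 16 by limma-voom with quality weights, 19 by DESeq2, 15 with the filter of at least 1 count, 8 without HFD M2 and F2 and 2 without CD M3. For CDmetf vs. CD DESeq2 called 4 of all genes and edgeR 0. Leaving out 1 library gave 1 to 8 called genes between the sexes, 8 of them without HFD M2, 0 to 0 called genes among those of the 10 that were tested in each contrast, and medians over the 10 genes of 0.10 to 0.29 for HFD vs. CD, −0.16 to −0.04 for HFDmetf vs. CDmetf and −0.55 to −0.33 for the interaction. The filter of at least 10 counts in every sample dropped *Flvcr2*, *Cybrd1* and *Hmox1*, and the setting of only the 12 samples compared could not be run for sex and interaction. The 2 to 99 reads of *Hmox1* limit what its values can show.

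The labels do not say what the replicate numbers share, and pairing was not taken as given, since not every pair correlated over 0.1. Deviations of samples with the same number in different groups had a mean correlation of 0.13, with 40 of 72 pairs over 0.1, and those with different numbers −0.0642, with 29 of 144. Without the replicate block 0 of the genes tested among the 10 were called for metformin or sex and 1 of all genes between the sexes. The medians were then 0.17 for HFD vs. CD, −0.09 for HFDmetf vs. CDmetf and −0.43 for the interaction, and *Flvcr2* had an FDR of 0.869 between the sexes (edgeR).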
